A study of Mus musculus with 9 samples.

Results

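Nr1d1 and 9 further genes of the core circadian clock loop (Nr1d2, Arntl, Clock, Npas2, Cry1, Per1, Per2, Per3 and Ciart) were followed in liver RNA of obese mice given a plant extract at either of 2 doses or vehicle alone. The members were taken by gene symbol from the authors' signal sheet, in which each of the 10 has 1 of the 22206 probe sets. The sheet holds 21130 distinct single gene symbols. Nr1d1 was chosen by its log2 signal in these same groups, and the other members because they form a loop with it, so the differences described here are no independent test of that choice. All 3 groups were male C57BL/6JHamSlc-ob/ob mice, obese for want of working leptin, and the vehicle mice carried the same genotype as the treated ones. The mice were 6 weeks old when obtained, were acclimatised for 1 week, ate standard chow freely under a 12 h light and 12 h dark cycle, and were gavaged for 42 days. The groups received vehicle, Vigna umbellata extract (VE, from a legume known as rice bean) at 50 mg/kg body weight (VE50), or VE at 100 mg/kg (VE100), with 3 arrays each. The hour of the day at which the livers were taken is not given in the sources used here, and the labels do not say whether each array came from a separate mouse, so the spread between arrays may be technical in part.

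The circadian clock of a mammalian cell is a feedback loop of transcription. ARNTL (also called BMAL1) pairs with CLOCK or NPAS2 and switches on genes that hold E-box motifs, among them the Per, Cry, Ciart and Nr1d genes, whose protein products then act back on the loop. PER and CRY proteins and CIART (also called CHRONO) repress the ARNTL pair itself, whereas the nuclear receptors REV-ERB alpha (Nr1d1) and REV-ERB beta (Nr1d2) repress Arntl, Npas2 and Cry1 through response elements they share with the ROR receptors, called RORE. In mouse liver the RNA of most of these genes rises and falls over the day, and REV-ERB proteins also act on genes of lipid and glucose metabolism.

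The starts of 4 members and a stretch of Arntl are printed because Nr1d1 and Cry1 carry the results and the others show the motifs of the loop in their plainest form. For Nr1d1, Cry1, Ciart and Per3, the lines give the 250 bases before the annotated start, read 5′ to 3′ on the strand of the gene. For Arntl, the line gives 29 bases around the RORE after its second annotated start. All are RefSeq sequences on build GRCm38.p6, and capitals mark the motif matches: the E-box CACGTG in Cry1 and Ciart, the D-box TTATGTAA in Per3 and the RORE in Arntl.
Nr1d1 (chr11:98775378-98775627, minus strand): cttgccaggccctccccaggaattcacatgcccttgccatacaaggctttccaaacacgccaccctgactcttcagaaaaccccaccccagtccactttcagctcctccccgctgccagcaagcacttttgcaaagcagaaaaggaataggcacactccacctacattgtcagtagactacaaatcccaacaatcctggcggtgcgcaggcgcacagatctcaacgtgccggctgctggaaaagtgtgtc
Cry1 (chr10:85185055-85185304, minus strand): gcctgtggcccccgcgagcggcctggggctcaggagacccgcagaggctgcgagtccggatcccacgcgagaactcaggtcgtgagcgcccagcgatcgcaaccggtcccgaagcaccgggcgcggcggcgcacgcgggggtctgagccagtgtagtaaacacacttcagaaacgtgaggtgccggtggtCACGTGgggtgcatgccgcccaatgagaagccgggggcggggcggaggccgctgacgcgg
Ciart (chr3:95882229-95882478, minus strand): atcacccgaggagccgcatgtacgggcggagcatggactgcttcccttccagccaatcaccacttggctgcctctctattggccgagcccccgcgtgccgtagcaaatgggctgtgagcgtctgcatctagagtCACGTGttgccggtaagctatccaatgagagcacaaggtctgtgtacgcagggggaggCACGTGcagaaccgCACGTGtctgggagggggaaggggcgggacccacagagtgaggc
Per3 (chr4:151044666-151044915, minus strand): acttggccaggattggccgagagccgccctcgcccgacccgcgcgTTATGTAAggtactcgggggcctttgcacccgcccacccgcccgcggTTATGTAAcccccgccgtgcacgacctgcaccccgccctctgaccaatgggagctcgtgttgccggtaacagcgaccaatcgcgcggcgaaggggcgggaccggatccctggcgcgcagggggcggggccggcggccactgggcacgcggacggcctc
Arntl (chr7:113207528-113207556, plus strand): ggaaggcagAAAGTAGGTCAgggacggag

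The reference table held 13 annotated starts for 9 of the 10 members, and each window of 250 bases before and 50 bases after a start was searched on both strands. The letters searched were CACGTG (E-box), AGGTCA (the core site within the RORE), TTATGTAA and TTACGTAA (D-box), and TGACGTCA (CRE). The RORE itself was searched by its consensus, whose letters are not listed here and allow several bases at some positions. E-boxes lay in 3 of the 13 windows, at -60 in Cry1, at -166 in the first start of Per1, and at -116, -58 and -44 in Ciart, against 7.15% of all 32851 promoters of the table. The RORE lay in 1 of the 13 windows, that of Arntl at +27, against 0.38% of all promoters, and its core site at +32 is part of the same match. Core sites lay in 4 of the 13 windows against 16.26% of all promoters, and besides Arntl these were Nr1d2 at -77, Clock at -119 and Per1 at -137. Per3 held the D-box at -205 and -158, the motif lay in 1.06% of all promoters, and no member window held a CRE, which lay in 1.79%. None of these letters lay in the Nr1d1 and Npas2 windows. A match describes these letters in this window and does not show that a factor binds there.

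**Figure D1:**
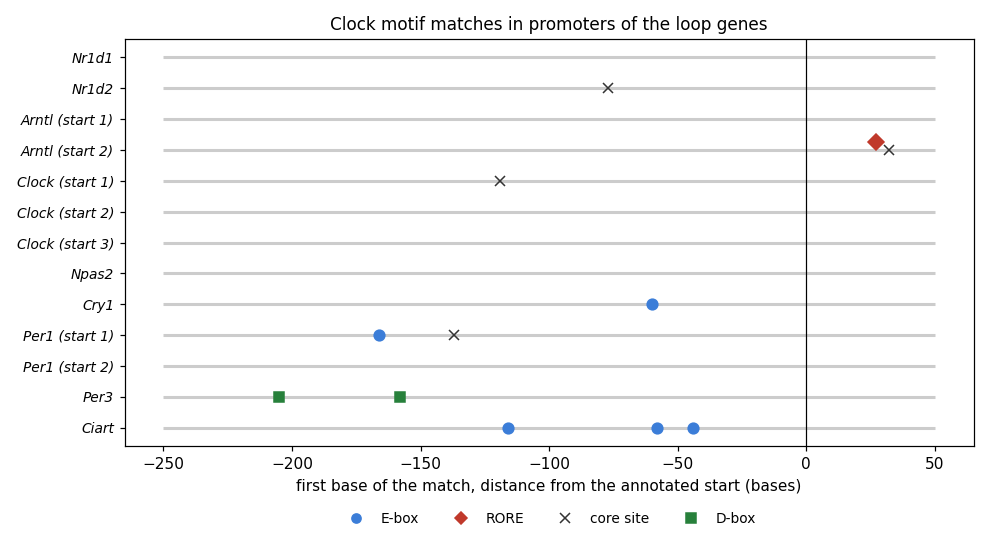
Motif matches in the 13 promoter windows of 9 loop genes, with the first base of each match on the horizontal axis as its distance in bases from the annotated start and 1 grey line per window. Ciart holds 3 E-boxes, Per3 holds 2 D-boxes, and the Nr1d1 and Npas2 windows hold no match.

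Nr1d1, which encodes REV-ERB alpha, had the lowest signal at the higher dose and an intermediate signal at the lower one. On the log2 scale of the deposited sheet, the vehicle arrays read 9.16, 8.44 and 8.55, the VE50 arrays 7.11, 7.38 and 6.91, and the VE100 arrays 6.46, 6.65 and 5.74. The 3 groups did not overlap at either step, so the order vehicle, VE50, VE100 held for every array. The group means were 8.72 ± 0.39, 7.13 ± 0.24 and 6.28 ± 0.48 (SD, n = 3 each). The difference from vehicle was -1.58 ± 0.30 (SE from the fit over all arrays) for VE50, a signal 3.00-fold lower, and -2.43 ± 0.30 for VE100, a signal 5.40-fold lower. VE100 was lower than VE50 by a further 1.80-fold, at -0.85 ± 0.30. In bulk liver RNA, fewer cells of a type and less RNA per cell cannot be told apart.

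Some measures of the arrays moved with the dose beside Nr1d1. The mean of the hybridization controls, spiked RNAs that track the array chemistry, ran from 10.73 to 11.01 on the vehicle arrays, from 10.93 to 11.27 on the VE50 arrays and from 11.15 to 11.44 on the VE100 arrays. With that mean as a covariate, the Nr1d1 differences were -1.47 for VE50, -2.25 for VE100 and -0.77 between the doses. Nr1d1 also approached the background of the array in treated livers. In the deposited value table, which includes 5222 negative control probe sets, Nr1d1 lay above 97.4%, 96.2% and 94.1% of them on the vehicle arrays, above 85.3% to 90.3% on the VE50 arrays, and above 75.0% to 79.5% on the VE100 arrays. It thus lay above 95% of the negative controls on 2 of the 9 arrays, both vehicle, and the folds are those of the deposited signal near background.

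The mean signal of 7 macrophage markers ran from 7.07 to 7.23 on the vehicle arrays, from 6.48 to 7.51 on the VE50 arrays and from 5.73 to 6.75 on the VE100 arrays. Of those 7 markers, 5 lay above 95% of the negative controls on no array, and their part in the Nr1d1 result was not tested. The 7 hepatocyte markers measured, of 8 listed, had a mean signal between 19.06 and 19.44 on every array, and each lay above 95% of the negative controls on every array. The Thra gene, whose annotated span overlaps that of Nr1d1 and which was looked up after the values were seen, has a probe set of its own. Its signal was 7.46 ± 0.13, 7.64 ± 0.45 and 7.35 ± 0.39 in vehicle, VE50 and VE100 (SD, n = 3 each), with overlapping arrays in all groups.

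**Figure D2:**
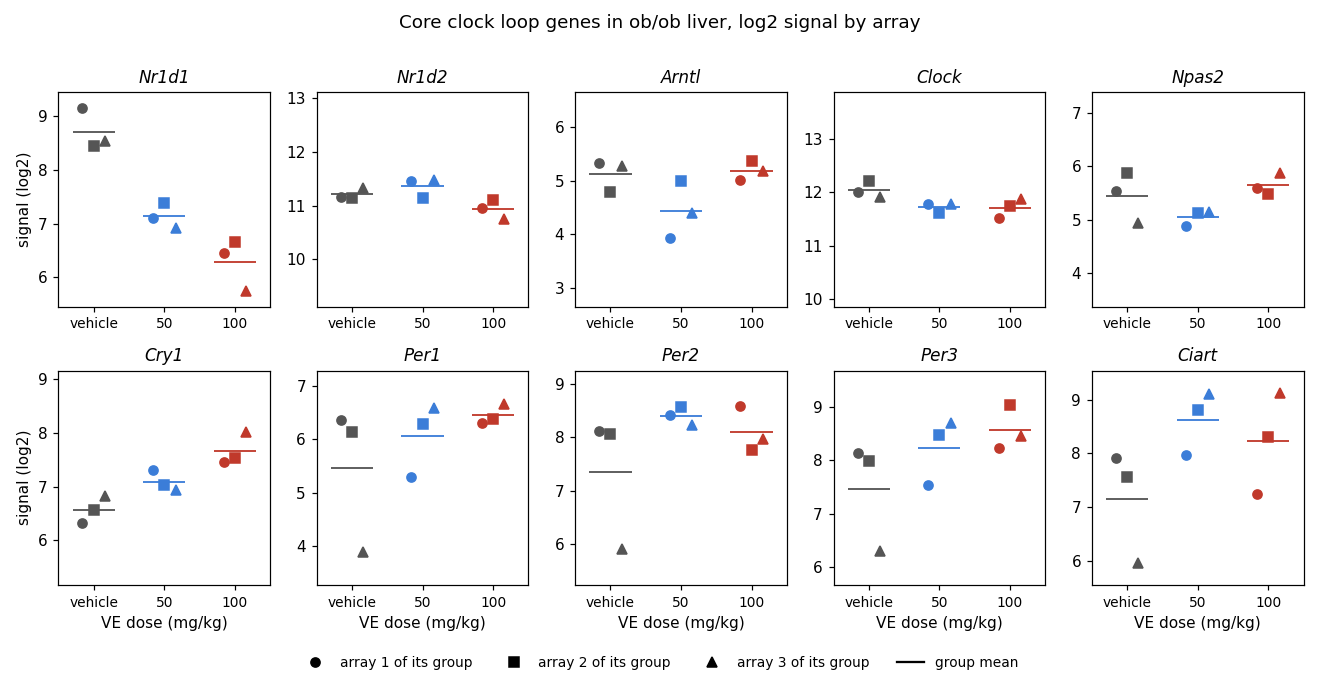
Log2 signal (vertical axis) of the 10 loop genes on each array by VE dose in mg/kg (horizontal axis), with 1 symbol per array and a line at each group mean; every panel spans the same number of log2 units. Nr1d1 steps down from a mean of 8.72 to 7.13 and 6.28, Cry1 steps up from 6.57 to 7.09 and 7.67, and vehicle array 3 lies lowest of all arrays for Per1, Per2, Per3 and Ciart.

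Nr1d2, which encodes REV-ERB beta, did not share the stepwise order of its paralog. Its vehicle arrays read 11.16, 11.15 and 11.33, its VE50 arrays 11.46, 11.14 and 11.48, and its VE100 arrays 10.96, 11.10 and 10.75. VE50 overlapped vehicle, while all VE100 arrays lay below both other groups by a narrow gap. The differences were 0.15 ± 0.20 for VE50, -0.28 ± 0.20 for VE100 and -0.42 ± 0.20 between the doses. In the deposited value table the doses overlapped each other, and the differences were -0.19, -0.32 and -0.13 in the same order.

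Among the activators, Arntl, the partner common to both ARNTL pairs, was lower at VE50 and near vehicle at VE100. Its arrays read 5.34, 4.79 and 5.27 in vehicle, 3.94, 4.99 and 4.39 in VE50, and 5.02, 5.36 and 5.19 in VE100. VE50 array 2 overlapped vehicle, and VE100 overlapped vehicle while lying wholly above VE50. The differences were -0.69 ± 0.29 for VE50, 0.06 ± 0.29 for VE100 and 0.75 ± 0.29 between the doses. Without VE50 array 1, the VE50 difference was -0.44 and that between the doses 0.50. The Arntl signal lay above only 23.1% to 66.6% of the negative controls, so its level was within the background of these arrays.

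Clock, the DNA-binding partner of ARNTL, was slightly lower at both doses in the signal sheet. Its arrays read 12.01, 12.21 and 11.92 in vehicle, 11.79, 11.61 and 11.78 in VE50, and 11.52, 11.75 and 11.87 in VE100. Every VE array lay below every vehicle array, and the doses overlapped each other. The differences were -0.32 ± 0.20, -0.33 ± 0.20 and -0.01 ± 0.20 for VE50, VE100 and between the doses, all small beside those of Nr1d1. In the deposited value table the Clock arrays of all groups overlapped, with differences of -0.09 for VE50 and -0.11 for VE100. Npas2, which can take the place of CLOCK, had arrays of 5.53, 5.87 and 4.94 in vehicle, 4.88, 5.12 and 5.14 in VE50, and 5.60, 5.49 and 5.88 in VE100. Vehicle overlapped both doses, and VE100 lay wholly above VE50. The differences of Npas2 were -0.40 ± 0.26, 0.21 ± 0.26 and 0.61 ± 0.26 in the same order, at signals above 38.7% to 61.9% of the negative controls.

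Cry1, a repressor of the ARNTL pair, ran opposite to Nr1d1. Its vehicle arrays read 6.32, 6.56 and 6.82, its VE50 arrays 7.30, 7.02 and 6.94, and its VE100 arrays 7.46, 7.54 and 8.01. As for Nr1d1, the 3 groups did not overlap at either step. The means were 6.57 ± 0.25, 7.09 ± 0.19 and 7.67 ± 0.30 (SD, n = 3 each), and VE100 was 2.15-fold higher than vehicle. The differences were 0.52 ± 0.24 for VE50, 1.10 ± 0.24 for VE100 and 0.58 ± 0.24 between the doses. Over all probe sets, 90 of 22206 (0.405%) had their 3 groups in such an order without overlap, 62 of them higher with dose (0.279%) and 28 lower (0.126%). Of the 10 members, Cry1 was in order upward and Nr1d1 downward. Nothing is read from this about the loop, since Nr1d1 was chosen by its signal in these groups and the other members with these comparisons known. Cry1 lay above 74.5% to 90.2% of the negative controls.

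The Period genes and Ciart, all repressors of the loop, shared another feature, a low value on a single vehicle array. Per1 read 6.36, 6.14 and 3.90 in vehicle, 5.30, 6.28 and 6.58 in VE50, and 6.30, 6.37 and 6.66 in VE100. Per2 read 8.11, 8.06 and 5.91 in vehicle, 8.41, 8.57 and 8.22 in VE50, and 8.58, 7.77 and 7.97 in VE100. In both, vehicle array 3 was far below the other 8 arrays, while vehicle arrays 1 and 2 lay close to the treated ones. Per3 read 8.13, 7.98 and 6.31 in vehicle, 7.53, 8.48 and 8.69 in VE50, and 8.23, 9.04 and 8.45 in VE100. Ciart read 7.92, 7.56 and 5.96 in vehicle, 7.96, 8.81 and 9.10 in VE50, and 7.24, 8.30 and 9.13 in VE100. Per3 and Ciart also had vehicle array 3 lowest, with the VE100 arrays of Per3 and the VE50 arrays of Ciart wholly above vehicle.

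With all arrays, the differences of VE50 from vehicle were 0.59 ± 0.58 for Per1, 1.04 ± 0.51 for Per2, 0.76 ± 0.49 for Per3 and 1.48 ± 0.58 for Ciart. Those of VE100 were 0.98 ± 0.58, 0.75 ± 0.51, 1.10 ± 0.49 and 1.08 ± 0.58 in the same order. Without vehicle array 3, the VE50 differences became -0.20, 0.32, 0.18 and 0.88, and the VE100 differences 0.19, 0.02, 0.52 and 0.48. The size of these differences for the Period genes thus depended on that array, and for Per1 at VE50 the sign changed without it. Per2 at VE50 (0.32 ± 0.27) and Per3 at VE100 (0.52 ± 0.35) stayed higher than vehicle without it. Between the doses, the differences were 0.39 ± 0.58, -0.29 ± 0.51, 0.34 ± 0.49 and -0.40 ± 0.58. That array takes no part in those means but widens their SE, which without it was 0.30, 0.24, 0.31 and 0.43, so Per1, Per2 and Per3 then exceeded it. Per1 lay above 20.5% to 76.8% of the negative controls, Per2 above 70.1% to 93.4%, Per3 above 80.1% to 96.4% and Ciart above 66.9% to 96.0%. In each of them the lowest share was that of vehicle array 3. Nr1d1 on vehicle array 3 was 8.55, between the other vehicle arrays, and its differences without that array were -1.67 for VE50 and -2.52 for VE100. Those of Cry1 were 0.65 and 1.23.

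Vehicle array 3 stood apart across the array, not in the loop alone. It lay below all other 8 arrays for 4 of the 10 members, against 20.2% of all probe sets, and above all others for 0 of 10, against 23.6%. Its signal correlated at 0.948 to 0.967 with the other arrays across probe sets, which correlated at 0.974 to 0.990 among themselves. The mean of 4 acute phase genes (Saa1, Saa2, Lcn2 and Orm2), which liver switches on in inflammation, was 16.52 on that array and 8.64 to 11.98 on the others. The part of that state in the low Period and Ciart signals was not tested.

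**Figure D3:**
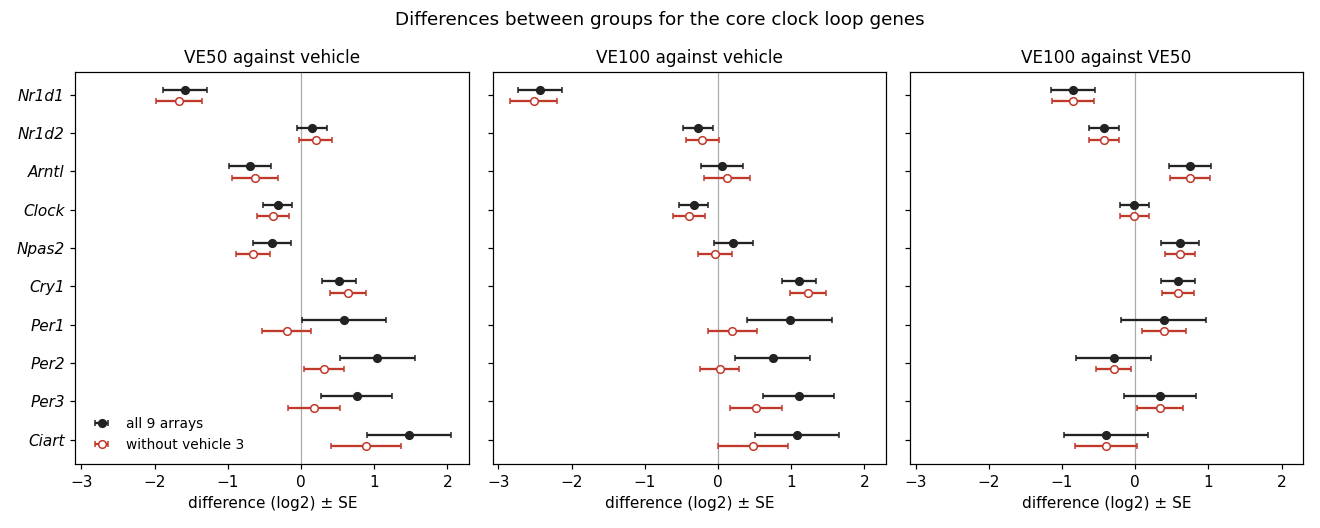
Log2 difference (horizontal axis) of each loop gene between groups, with bars of ± SE from the fit, for all 9 arrays (filled) and without vehicle array 3 (open). Nr1d1 lies left of zero in all 3 panels and keeps its place without that array (-2.43 and -2.52 for VE100), whereas Per1 and Per2 move toward zero or across it.

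By the study's own criterion, a fold above 1.1 together with a p under 0.05 before adjustment, 3 of the 10 members differed between VE50 and vehicle, with Ciart higher and Nr1d1 and Arntl lower. Of all probe sets, 6.12% passed that criterion, 3.31% higher and 2.8% lower. For VE100, 3 members passed, with Cry1 and Per3 higher and Nr1d1 lower, against 9.48% of all probe sets (5.11% higher and 4.37% lower). Between the doses, 4 members passed, with Arntl, Npas2 and Cry1 higher at VE100 and Nr1d1 lower, against 2.91% of all probe sets (1.49% and 1.43%). After Benjamini-Hochberg adjustment of limma's p-values over all probe sets, 0 members and 0 probe sets passed 0.05 in any of the 3 comparisons. For VE100, limma's adjusted p was 0.0868 for Nr1d1 and 0.310 for Cry1, and for VE50 that of Nr1d1 was 0.794. Nothing is read from these counts about the loop, since its genes were chosen with these comparisons known.

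Not every call was equally firm. Without vehicle array 3, Ciart and Arntl no longer passed the study's criterion at VE50, at 0.88 and -0.62, while Cry1 and Npas2 passed, at 0.65 and -0.65. The count for VE50 was then again 3 of 10, against 13.5% of all probe sets. Per3 no longer passed at VE100, at 0.52, which left Nr1d1 and Cry1, against 16.6% of all probe sets, and the 4 members past it between the doses stood against 5.62%. In that fit, limma's adjusted p was under 0.05 for 0 members at VE50, against 0.045% of probe sets, and for Nr1d1 and Cry1 at VE100, that of Cry1 being 0.0309, against 1.95%. Between the doses, Nr1d1 lost the criterion without VE50 array 2, at -0.73, and without VE100 array 3, at -0.58. Cry1 lost it there without VE50 array 2 or 3, at 0.55 and 0.51, and without VE100 array 3, at 0.41. Arntl at VE50 also lost the criterion without vehicle array 1 (-0.59) and without VE50 array 1 (-0.44) or 3 (-0.67), and between the doses without VE50 array 1 (0.50) or 3 (0.72) and VE100 array 2 (0.66) or 3 (0.75). Ciart at VE50 lost it without VE50 array 2 (1.38) or 3 (1.24). Per3 at VE100 lost it without VE50 array 2 or 3 (1.10 each) and without VE100 array 1 (1.27), 2 (0.87) or 3 (1.16). Npas2 between the doses lost it without vehicle array 1 (0.61), without any one of the VE50 arrays (0.53, 0.65 and 0.66) and without VE100 array 1 (0.64) or 3 (0.50). Other members gained the criterion, as Per2 did at VE50 without vehicle array 1 (1.42) or 2 (1.39), and Per1 (1.42) and Ciart (1.46) at VE100 without vehicle array 1.

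Arrays of VE50 and vehicle did not overlap for 5 members, with Per2, Cry1 and Ciart higher and Nr1d1 and Clock lower, against 10.9% of all probe sets (6.16% higher and 4.69% lower). For VE100 and vehicle the 5 members were Cry1 and Per3, higher, and Nr1d1, Nr1d2 and Clock, lower, against 13.6% (7.47% and 6.08%). For the 2 doses they were Arntl, Npas2 and Cry1, higher at VE100, and Nr1d1 and Nr1d2, lower, against 10% (4.99% and 5.01%). These counts are for the signal sheet. In the deposited value table, Clock overlapped vehicle at both doses, Ciart overlapped it at VE50, and the doses of Nr1d2 overlapped each other. Arntl at VE50 lay wholly below vehicle there. The median difference of the 10 members was 0.33 for VE50 and 0.48 for VE100, where the median over all probe sets was -0.01 in both. Without vehicle array 3, the members' medians were -0.01 and 0.07, and those of all probe sets 0.02 and 0.03.

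The authors' deposited tables gave Nr1d1 averages of 8.50, 7.13 and 6.48 for vehicle, VE50 and VE100, with a signed fold of -4.05 for VE100 against vehicle. The authors' deposited table of that comparison holds 2 of the 10 members, Nr1d1 and Cry1, and 8.17% of all probe sets. Cry1 stands there with averages of 6.56 and 7.50 and a fold of 1.92. Per3, which passed the same criterion here, is not listed there. The authors' deposited vehicle averages of Per1, Per2, Per3 and Ciart (6.24, 8.08, 8.05 and 7.70) lie close to vehicle arrays 1 and 2, whereas the arithmetic means were 5.47, 7.36, 7.47 and 7.15.

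Around the core loop, 29 further genes in 4 lists were described, 3 lists of clock genes and 1 of genes outside the loop. The first list holds 8 other clock genes, mostly transcription factors of the loop. Among them are Rora and Rorb, receptors that activate at the RORE, and NFIL3, which represses at the D-box. For VE50, 0 of the 8 passed the study's criterion with all arrays. Without vehicle array 3, Rora (-0.69) and Bhlhe40 (-0.65) passed lower for VE50, and Bhlhe40 (-1.19) and Bhlhe41 (-1.35) for VE100. Bhlhe40 then also passed lower between the doses, at -0.54. With all arrays, Nfil3 was higher for VE100 at 0.83 ± 0.27 and Rorb was lower at -0.61 ± 0.25. The Nfil3 arrays read 5.76, 6.01 and 6.56 in vehicle, 6.00, 6.10 and 6.28 in VE50, and 6.71, 7.37 and 6.73 in VE100. All VE100 arrays of Nfil3 lay above the other 6. With all arrays, it was also the single gene of that list past the criterion between the doses, at 0.81 ± 0.27. Its VE100 difference was 1.05 without vehicle array 3, and it lay above 62.5% to 86.9% of the negative controls. Rorb, at -0.39 and no longer past the criterion without that array, was within background, above at most 20% of the negative controls. 

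Of 12 kinases, ubiquitin ligases and REV-ERB partners that set the stability and activity of clock proteins, 0 passed the study's criterion in any of the 3 comparisons. Usp2, a deubiquitinase, had their largest VE100 difference, 1.23 ± 0.88, which was -0.08 without vehicle array 3. The count of 0 depended on that array. Without it, 3 of the 12 passed lower at both doses, against 13.5% (VE50) and 16.6% (VE100) of all probe sets in either direction. The 3 genes were Csnk1d, a kinase of PER proteins (-0.72 for VE50 and -0.59 for VE100), the kinase gene Gsk3b (-0.80 and -0.87), and Ncor1, the corepressor that REV-ERB recruits (-0.64 and -0.61). Of the 3 PAR bZIP factors, which carry the rhythm to output genes through D-boxes, Dbp passed for VE50 at 1.04 ± 0.34 and between the doses at -1.08 ± 0.34. Its arrays read 12.53, 12.95 and 11.52 in vehicle, 13.11, 13.73 and 13.28 in VE50, and 12.16, 12.42 and 12.30 in VE100, so Dbp was high at the lower dose and back within the vehicle range at the higher one. Its VE50 difference was 0.63 without vehicle array 3, still past the criterion. In that fit Hlf, another of these factors, passed lower for VE100, at -0.76. Of 6 genes outside the loop known as repressed by REV-ERB in mouse or human cells, 0 passed for VE50 and Pck1 passed for VE100 at 0.72 ± 0.25. Pck1 encodes a control enzyme of glucose production, and for VE100 it did not pass without vehicle array 3, at 0.53. Without that array, Apoc3 passed higher (0.50) and Insig2 lower (-0.99) for VE50. Elovl3 (1.57) and Pck1 (0.49) then passed higher between the doses. The median difference of those 6 was 0.25 for VE50 and 0.50 for VE100, and -0.36 and 0.03 without vehicle array 3.

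Over the 4 lists, 1 of the 29 genes passed the criterion higher and 0 lower for VE50, and 2 higher and 1 lower for VE100, against 6.12% and 9.48% of all probe sets. Without vehicle array 3, the counts were 2 higher and 6 lower for VE50, and 1 higher and 6 lower for VE100, against 13.5% and 16.6% of all probe sets. In that fit Bhlhe40, which encodes an E-box repressor also called DEC1, was lower for VE100, at -1.19, with an adjusted p of 0.0448 by limma. It was the single gene of the 29 to pass after adjustment. With all arrays its difference was -0.27 ± 0.62, since it read 14.15, 13.53 and 11.08 in vehicle and 12.43, 12.69 and 12.84 in VE100.

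**Figure D4:**
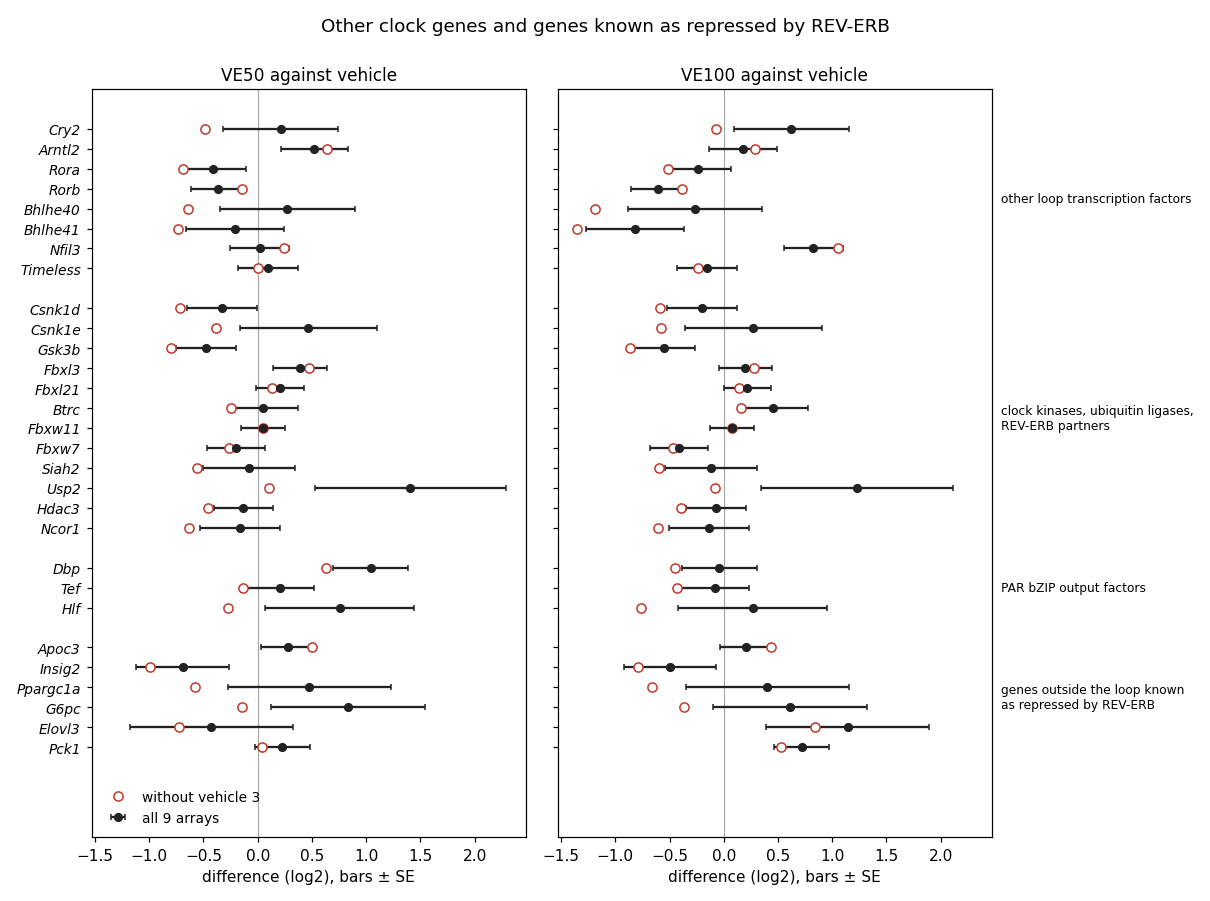
Log2 difference (horizontal axis) from vehicle of 29 genes, in 3 lists of other clock genes and 1 of genes outside the loop known as repressed by REV-ERB, with bars of ± SE for all 9 arrays (filled) and the value without vehicle array 3 (open). Nfil3 and Dbp keep their sides where they passed the study's criterion (0.83 for VE100 and 1.04 for VE50), while Usp2 moves from 1.23 to -0.08 for VE100.

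Genes whose signal ran most like that of Nr1d1, described here with no test, were sought by Pearson r over the 9 arrays. The search left out the members and covered 10546 other genes with a mean signal above the median, predicted genes included. The highest were Bcs1l at 0.977, an assembly factor of mitochondrial complex III, Stt3a at 0.969, a subunit of the enzyme that adds sugar chains to proteins, Ap2a2 at 0.956, Bsdc1 at 0.954 and Wdr6 at 0.944. Their VE100 differences from vehicle ran from -1.09 to -0.65, smaller than that of Nr1d1. The lowest were Pcnt at -0.970, a centrosome protein, Ppp1r3b at -0.951, which brings a phosphatase to glycogen, Nampt at -0.944, the enzyme that limits the salvage of NAD, Naa20 at -0.944 and Ankrd26 at -0.940. Their VE100 differences ran from 0.53 to 1.50. The 9 points of each r fall into 3 groups that do not overlap in Nr1d1.

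Within groups, by r of deviations from the group means over the same arrays, other genes came first. The highest were Rassf6 at 0.980, Tbc1d31 at 0.976, Ddx11 at 0.975, Kdm5a at 0.953 and Qtrtd1 at 0.942. The lowest were Akr1c19 at -0.961, Rbx1 at -0.952, Casp2 at -0.944, Paics at -0.934 and Gtf2a2 at -0.932. No gene named by one measure was named by the other. Both sets are the extremes of 10546 genes over 9 arrays, and whether such r exceed those of unrelated genes was not tested.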

How the data were processed

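Liver RNA of 9 mouse samples was measured on Affymetrix Clariom S arrays. The authors' signal sheet holds log2 values of 22206 probe sets, for which the series' design text names SST-RMA and Transcriptome Analysis Console 4.0.2; RMA removes background, brings the arrays to a common distribution and combines the probes of a set. A second deposited table holds log2 values of the same arrays with the control probe sets. The deposited comparison tables hold p-values, FDR values and a signed fold score, and the conditions of their F-test are not named. The genome build is not given in the sources used here. Hybridisation date, scan date and batch are not given either.

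Group means were estimated in limma (version 3.58.1, R 4.3.3) from all 9 arrays by lmFit followed by eBayes, with 6 residual and 4.29 prior degrees of freedom, and p-values were adjusted by Benjamini-Hochberg over all probe sets. The fit was tested on simulated data. The members and gene lists were chosen with earlier results of these data known. Each symbol entered with its probe set of highest mean. Every member is named. Of the other clock lists, genes past the study's criterion are named, or else the gene with the largest VE100 difference. Rora, Bhlhe40, Bhlhe41, Csnk1d, Gsk3b, Ncor1, Hlf, Apoc3, Insig2, Elovl3, Thra and the acute phase genes were named after their values were seen. Likeness to Nr1d1 names the 5 highest and 5 lowest r, passing over predicted genes. Alternatives were another normalization, arrays centred on their median, the deposited value table, a filter on dim probe sets, array weights, an intensity trend, control covariates, the compared groups alone, a replicate block and leaving out each array. Same-numbered arrays correlated at -0.237 to 0.208 in their deviations from the group means, and other-numbered arrays at -0.225 to 0.265. The arrays were thus not treated as paired, though the labels do not say whether the numbers mark a pairing. Wild-type mice were not analysed here, and 2 genes of the other clock lists are not reported here. The number of arrays limits the precision.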

Additional observations from a re-analysis of the deposited data

How the results depend on the processing

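Nr1d1 was lower than vehicle at both doses under all 19 alternatives, each time past the study's criterion. When each array was left out in turn, its differences were -1.72 to -1.36 for VE50 and -2.62 to -2.16 for VE100. Nr1d1 was chosen by its signal in these groups, so this is no independent support. The replicate block, the intensity trend and the compared groups alone leave the group means as they were, so they could not move these differences. The same holds for the filter on dim probe sets and for leaving out an array of the group not compared. The adjusted p of Nr1d1 for VE100 by limma ran from 0.00794 (without vehicle array 3) to 0.806, and that for VE50 from 0.0695 to 0.989. Between the doses it passed under 16 of 19 alternatives and fell short with the hybridization control covariate, at -0.77, and in 2 of the fits that left out an array, whose range was -1.03 to -0.58. The count of members past the criterion was 3 for VE50, 3 for VE100 and 4 between the doses. With the covariate of negative less positive controls it was 5 and 6 for the comparisons with vehicle, where 2798 and 3525 of all 22206 probe sets passed. With the hybridization covariate it was 0 between the doses. Leaving out 1 array gave 1 to 4 members for VE50 (1 without VE50 array 3), 2 to 5 for VE100 (5 without vehicle array 1) and 0 to 4 between the doses (0 without VE100 array 3, 1 without VE50 array 3, 2 without VE50 array 1 or 2). With the replicate block, the Nr1d1 differences were -1.58, -2.43 and -0.85, and the member counts 3, 2 and 3. Cry1 for VE100 passed under all 19 alternatives, at 0.93 to 1.23, whereas Per3 for VE100 passed under 6 of 19 and Ciart for VE50 under 15 of 19. Probe sets past the criterion for VE50 numbered 1358, against 744 above the median signal, 2902 with array weights, 2798 with the negative less positive covariate and 2991 without vehicle array 3. For VE100 they numbered 2105, against 1249, 3743, 3525, 3688 and, with the hybridization covariate, 1320. Between the doses they numbered 647, against 247, 1267, 1047 and 1247 under the same first 4 alternatives as for VE50, 1119 with the compared groups alone and 413 without VE50 array 1. Adjusted counts of 0 became 10 for VE50 and 434 for VE100 without vehicle array 3, and for VE100 125 with array weights, 1 in the deposited value table (where the adjusted p of Nr1d1 was 0.0473) and 1 with the negative less positive covariate. The causes were not tested. Arntl drops out under the filter on dim probe sets, and no member has a further probe set, so that alternative gave no value. Signal near the negative controls limits Arntl, Npas2, Per1, Per2, Cry1 and treated Nr1d1, and Per3 and Ciart on part of the arrays.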
